A study of Mus musculus with 6 samples.

Results

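The proteasome subunit genes were followed in burst-forming unit erythroid cells (BFU-E), the early committed progenitors of red blood cells, taken from livers of 129/SvImJ E14.5 mouse embryos. Genes were members if their symbol began with Psm, a letter from a to g and a digit, with Psmb8, Psmb9, pseudogenes and genes under 100 summed counts over the 6 libraries left out. That gave 47 of the 37620 genes in the tables, and all 47 were among the 14125 genes that passed the filter on low counts and were tested. Psmb11, the thymus subunit, fell under the minimum with 20 summed counts, and the lowest members were Psma8 with 743, Psmg4 with 4132 and Psmc3ip with 4142. The members comprised 16 genes of the 20S core, 17 of the 19S cap, and 13 of the activators, the inhibitor and the assembly chaperones. The remaining match, Psmc3ip, encodes a cofactor of meiotic recombination that is no proteasome subunit, and it is given apart.

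There were 3 groups of 2 libraries each: cells with 100 nM dexamethasone and 10 µM GW7647 ("both drugs"), cells with 100 nM dexamethasone alone (Dex), and untreated cells. Dexamethasone activates the glucocorticoid receptor and GW7647 the nuclear receptor PPARα. All groups came from magnetic depletion of lineage-positive, Sca-1, CD16/32, CD41 and CD34 cells and a sort for c-kit-positive cells with the 10% lowest CD71. The stated medium was serum-free, with 100 ng/mL stem cell factor, 40 ng/mL IGF-1 and 2 U/mL erythropoietin. The labels state 12 h of treatment, whereas headers in 1 table read 36 h. Untreated cells were kept in the medium alone per the protocol, and their time in culture is not given apart. No group had GW7647 alone. Nothing says that the libraries of a group came from separate cultures or litters, so each p-value measures the spread between these libraries, which may be technical.

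The proteasome degrades proteins that carry ubiquitin chains. Its core is a barrel of alpha and beta rings, with the proteolytic sites inside, and its cap has a base of ATPases that unfold and thread the substrate and a lid that removes the ubiquitin. Alternative activators, the PA28 and PA200 proteins, can bind the core in place of the cap. In maturing red cells, ubiquitin-dependent breakdown is known to clear proteins that the cell no longer needs.

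Library depth ran from 46716806 and 35970286 counts with both drugs and 54174801 and 45058773 with Dex to 37577414 and 39791302 in untreated cells. All 7 markers fixed for the erythroid lineage were detected, among them Gata1, with 10374 and 10348 normalised counts (scaled to a common library size) with both drugs, 10663 and 10226 with Dex and 11483 and 12377 in untreated cells. The summed erythroid markers stood at 151291 to 151364 normalised counts with both drugs, 144608 to 149760 with Dex and 213048 to 216942 in untreated cells, and 4 of 7 were lower and 1 higher with Dex. Markers of other blood lineages moved as well. Granulocyte markers summed to 4352 to 4437 with both drugs, 7029 to 7313 with Dex and 14761 to 15784 in untreated cells, with 6 of 7 lower and 0 higher with Dex. Megakaryocyte markers summed to 10236 to 10551 with both drugs, 14287 to 16270 with Dex and 30955 to 32956 in untreated cells, with 5 of 6 lower with Dex. Mast cell and basophil markers summed to 10070 to 10304 with both drugs, 16818 to 16987 with Dex and 6993 to 7017 in untreated cells, with 2 of 7 higher and 4 lower with Dex. Hepatoblast markers summed to 120 to 128 with both drugs, 191 to 196 with Dex and 17 to 22 in untreated cells, and endothelial and stromal markers to 135 to 140 with both drugs, 228 to 254 with Dex and 601 to 604 in untreated cells. Sums of macrophage markers were at most 426, with C1qa at 0 in all libraries, and of lymphoid markers at most 37. The part of other cells in the differences that follow was not tested, and in these bulk libraries fewer cells of a type and less RNA per cell cannot be told apart.

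Upstream sequence was available from RefSeq (GRCm38.p6) for 39 of the 47 members, and the 250 bases before the start were searched on both strands. The 7 letters CCGGAAG, which factors of the ETS family bind, lay before 8 of 14 cap genes (57.1%) and 1 of 12 core genes (8.33%), beside 7.83% of all 27025 genes with an entry. The same letters lay before 3 of 12 genes of the activators, inhibitor and assembly chaperones. Without Psmc3ip, that made 12 of 38 members, so the match was not confined to the cap. The pattern TGACNNNGC, the core of the element bound by NFE2L1 and NFE2L2, lay before 2 of 14 cap genes and 2 of 12 core genes, beside 11.5% of all genes. CCAAT lay before 4 of 14 cap and 6 of 12 core genes, beside 37.5% of all. These are matches of letters, not sites. The shares of all genes were not matched for expression level, and whether highly expressed genes carry these letters more often was not tested. The following windows belong to a catalytic core subunit and a cap ATPase that did not pass the test in any comparison (Psmb5, Psmc6), the cap subunit that fell furthest (Psmd11), and activators that rose (Psme1) and fell (Psme3). Capitals mark matches to these patterns on either strand, and Psme1 had none.
Psmb5, chr14:54617996-54618245, minus strand: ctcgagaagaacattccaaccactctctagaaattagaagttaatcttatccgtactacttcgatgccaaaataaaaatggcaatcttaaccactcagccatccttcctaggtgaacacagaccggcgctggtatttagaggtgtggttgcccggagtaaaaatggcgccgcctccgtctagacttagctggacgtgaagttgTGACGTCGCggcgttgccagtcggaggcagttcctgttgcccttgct
Psmc6, chr14:45329574-45329823, plus strand: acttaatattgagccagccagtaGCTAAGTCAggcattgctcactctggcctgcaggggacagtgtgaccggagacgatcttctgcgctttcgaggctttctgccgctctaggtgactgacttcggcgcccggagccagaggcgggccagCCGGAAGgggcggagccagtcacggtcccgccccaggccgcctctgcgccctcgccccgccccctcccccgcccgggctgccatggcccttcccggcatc
Psmd11, chr11:80428365-80428614, plus strand: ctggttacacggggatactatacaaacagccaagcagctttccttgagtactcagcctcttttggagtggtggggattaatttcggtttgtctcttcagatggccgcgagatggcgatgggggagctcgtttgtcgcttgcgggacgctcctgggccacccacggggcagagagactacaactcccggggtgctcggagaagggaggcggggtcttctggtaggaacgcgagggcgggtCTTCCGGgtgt
Psme1, chr14:55578244-55578493, plus strand: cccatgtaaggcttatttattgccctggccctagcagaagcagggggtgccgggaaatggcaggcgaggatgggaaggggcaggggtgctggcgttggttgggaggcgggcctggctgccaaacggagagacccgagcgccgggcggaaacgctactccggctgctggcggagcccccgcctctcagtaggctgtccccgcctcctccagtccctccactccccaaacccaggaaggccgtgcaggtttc
Psme3, chr11:101315963-101316212, plus strand: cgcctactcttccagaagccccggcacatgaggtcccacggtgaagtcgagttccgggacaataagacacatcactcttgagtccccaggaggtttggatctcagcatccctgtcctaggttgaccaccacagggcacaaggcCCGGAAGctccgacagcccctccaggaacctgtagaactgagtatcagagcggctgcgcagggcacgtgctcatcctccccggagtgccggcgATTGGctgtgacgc

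Every constitutive core and cap gene was highly expressed in all groups. Levels between genes were compared as CPM per kb of exon (counts as a share of the TMM-scaled library, divided by length), with exon lengths from GENCODE M21 (GRCm38), a later annotation than the counts were made with, so the order between genes is approximate. Among the 14 constitutive core genes, levels ran from 29.6 (Psma3) to 250 (Psmb5) with both drugs, 29.6 to 261 with Dex and 25.8 to 240 in untreated cells, with the same genes at the ends. The core medians were 89.6 CPM per kb with both drugs, 89.7 with Dex and 89.0 in untreated cells. The 17 cap genes ran from 27.3 to 158 with both drugs, 26.0 to 158 with Dex and 34.1 to 155 in untreated cells, with Psmd11 lowest and Psmc5 highest in each. The highest genes depended on the length used, here the merged exons of all transcripts. With the longest transcript as length, Psmb4 stood above Psmb5 and Psmc3 above Psmc5 with Dex. The cap medians were 73.1 with both drugs, 74.0 with Dex and 76.2 in untreated cells. The lowest of these cap and constitutive core genes with Dex, Psmd11, still lay above 82.9% of the genes tested.

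**Figure D1:**
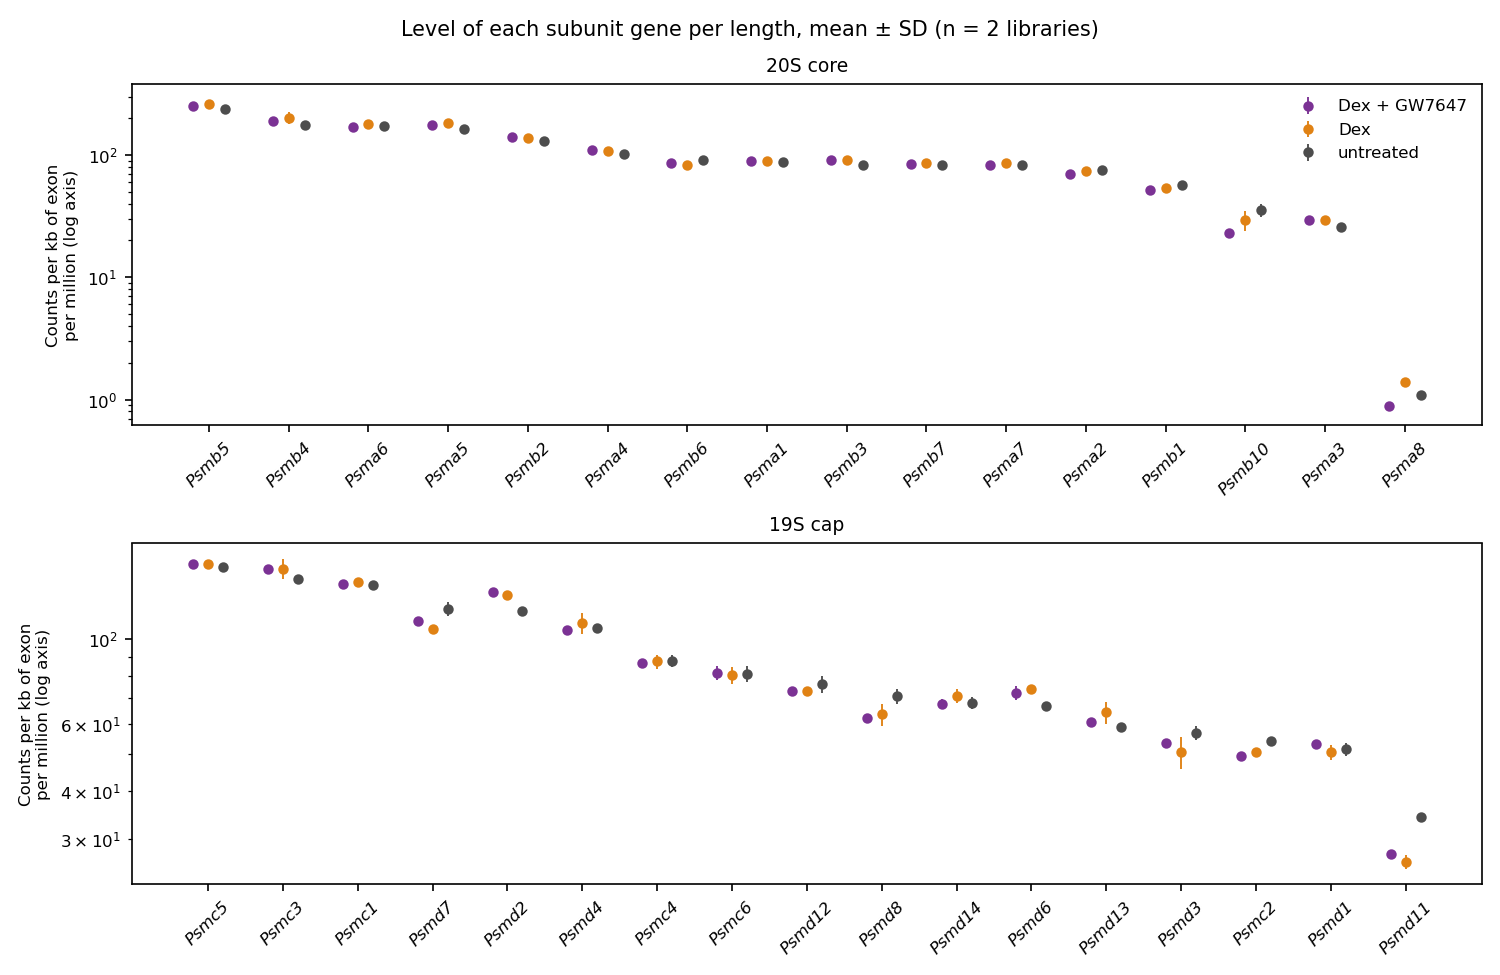
Level of each core gene (upper) and cap gene (lower) as CPM per kb of exon on a log axis, with both drugs, with Dex and untreated (points are means of 2 libraries, bars SD), ordered by the untreated level. The order of genes is close to the same in the 3 groups, with Psma8 near 1 CPM per kb at the low end of the core and Psmd11 lowest in the cap.

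Of the 2 subunits that replace constitutive ones in special cells, Psma8 lay far below the constitutive genes and Psmb10 lay near the lowest of them. Psma8, the testis form of the alpha subunit Psma7, stood at 0.883 ± 0.060 CPM per kb with both drugs, 1.398 ± 0.03 with Dex and 1.08 ± 0.03 in untreated cells (SD, n = 2 each). Psma7 itself stood at 83.4 ± 0.61 with both drugs, 85.5 ± 3.42 with Dex and 82.9 ± 0.57 in untreated cells. Psmb10, the immunoproteasome subunit that takes the place of the trypsin-like Psmb7, had 23.2 ± 0.92 with both drugs, 29.3 ± 5.50 with Dex and 35.4 ± 4.26 in untreated cells, while Psmb7 had 84.7 ± 0.79 with both drugs, 86.2 ± 0.70 with Dex and 83.3 ± 1.97 in untreated cells. Exons of Nek6 cover 11.8% of the exon length of Psmb7 on the other strand, and whether the counting used strand is not stated.

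With Dex against untreated, 4 of 16 core genes were higher and 0 lower, and 2 of 17 cap genes were higher and 4 lower by edgeR's quasi-likelihood test at a Benjamini-Hochberg adjusted p of 0.05. Of all genes tested, 51.6% were called, 25.5% higher and 26.0% lower, so the share of core genes called higher was near the background. The core median was a log2 difference of 0.06 and the cap median -0.01, beside 0.01 over all genes tested. The median size of the difference, whatever its sign, was 0.11 for the core and 0.09 for the cap, beside 0.27 over all genes. The all-gene value was not matched for level, and it includes many genes expressed below these subunits. At an unadjusted p under 0.05, 2 core genes were lower, and DESeq2 called 0 lower.

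With both drugs against untreated, 1 core gene was higher and 2 lower, and 1 cap gene was higher and 3 lower, where 49.7% of all genes were called (24.7% higher, 25.1% lower). These comparisons share the untreated libraries. With both drugs against Dex, 1 core gene and 0 cap genes were lower and none of either was higher, where 9.73% of all genes were called (2.15% higher, 7.58% lower). In that comparison 0 cap genes reached an unadjusted p under 0.05 and DESeq2 called 0, while 2 core genes were lower at the unadjusted threshold and DESeq2 called 0.

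The balance of directions rested on the scaling. Scaling by total counts in place of the trimmed mean of M values (TMM) moved the median of all genes by 0.13, to 0.14, with Dex against untreated, and 12 core genes were then higher and 0 lower, with 8 cap genes higher and 1 lower. Differences and calls are therefore given relative to the TMM scale, on which the median gene stands near 0, unless another setting is named.

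**Figure D2:**
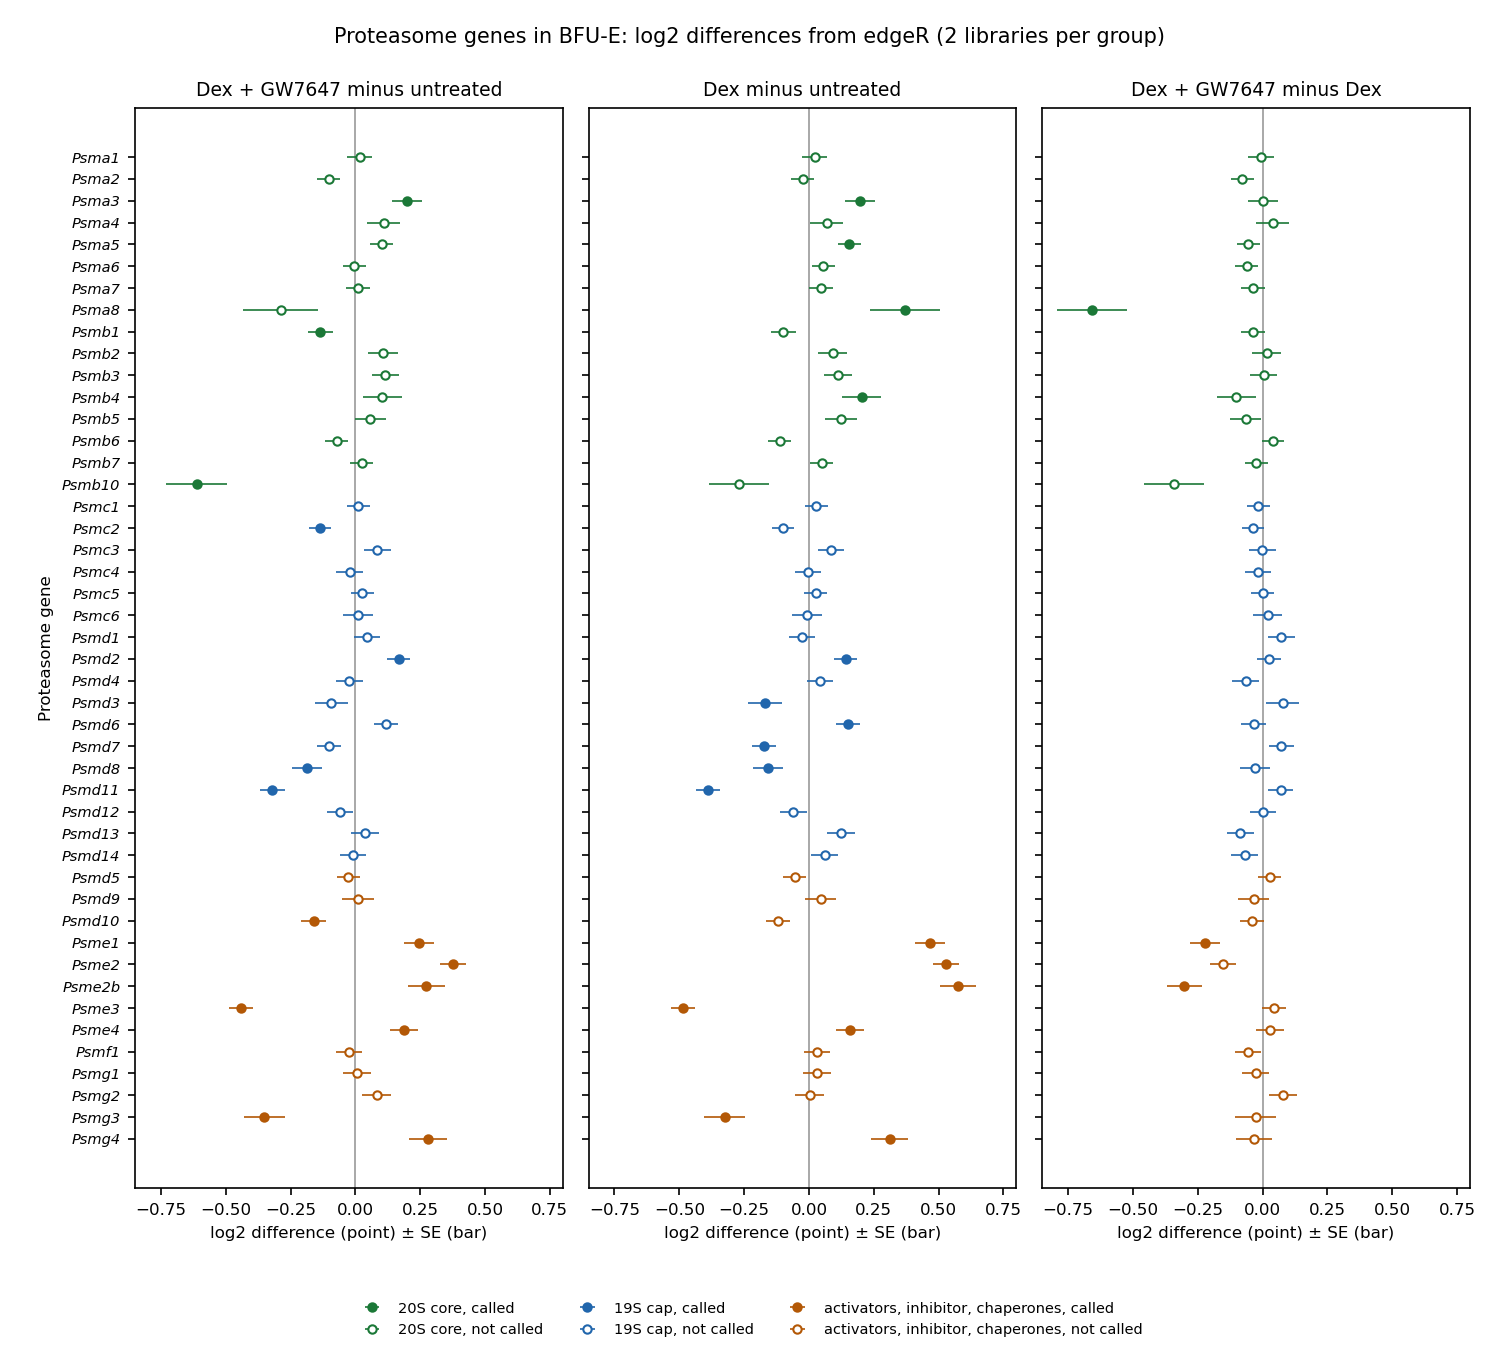
Log2 differences of the 46 proteasome genes (rows, grouped as core, cap and other) for both drugs minus untreated, Dex minus untreated and both drugs minus Dex. Points are edgeR estimates with SE bars, filled where the adjusted p was under 0.05. Core and cap genes lie within 0.4 of 0 in the Dex comparison, and there the PA28 genes Psme1, Psme2, Psme2b and Psme3 lie farthest from 0.

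In the alpha ring, the outer gate of the core, 2 of 7 genes rose with Dex and 0 fell. That share (28.6%) was near the 25.5% of all genes called higher. Psma3 had 4976 and 5037 normalised counts with both drugs, 4762 and 5243 with Dex, and 4516 and 4210 in untreated cells, so all treated libraries lay above the untreated ones. Its log2 difference was 0.20 ± 0.06 (SE, edgeR adjusted p = 0.0183) for Dex and 0.20 ± 0.06 (adjusted p = 0.0186) for both drugs. The Dex call was lost without untreated replicate 2 (adjusted p = 0.127) or Dex replicate 2 (adjusted p = 0.138), and that for both drugs without untreated replicate 2 (0.125) or either library of both drugs (0.0746 and 0.0981). Psma5 had 10168 and 9892 with both drugs, 10410 and 10436 with Dex, and 9250 and 9460 in untreated cells, which also did not overlap. It rose by a log2 of 0.16 ± 0.04 with Dex (edgeR adjusted p = 0.0137), and leaving out untreated replicate 1 gave an adjusted p of 0.077. Psma1 was the core gene least changed with Dex (log2 0.02 ± 0.05), though it was called higher under total count scaling (edgeR adjusted p = 0.0241). It had 11507 and 11201 with both drugs, 11178 and 11622 with Dex, and 11574 and 10886 in untreated cells. Those 3 groups overlapped. Psma2 overlapped between Dex (11476 and 11960) and untreated (11920 and 11919) and was lower, without a call, with both drugs (11046 and 11162).

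The beta ring carries the cleaving sites, and 1 of its 7 constitutive genes rose with Dex (14.3%, beside 25.5% of all genes called higher). Psmb4, a structural subunit, had 16394 and 15516 normalised counts with both drugs, 18425 and 15785 with Dex, and 14179 and 15534 in untreated cells. It rose by a log2 of 0.20 ± 0.07 with Dex (edgeR adjusted p = 0.0438), a call kept in 7 of 13 alternatives. The call was lost on the 4 libraries compared (edgeR adjusted p = 0.0617) and with a replicate block (0.0678). It was also lost without Dex replicate 1, the library at 18425 (log2 0.09), untreated replicate 1 (log2 0.14) or either library of both drugs. The 3 catalytic subunits did not pass. Psmb5, the chymotrypsin-like site, had 9602 and 9871 with both drugs, 10754 and 9619 with Dex, and 9028 and 9676 in untreated cells (log2 0.12 ± 0.06 for Dex, edgeR adjusted p = 0.12), with Dex and untreated overlapping. The caspase-like Psmb6 stood at 7025 and 6939 with both drugs, 6866 and 6711 with Dex, and 7279 and 7400 in untreated cells, where the groups did not overlap and the adjusted p was 0.0564 for Dex, and 0.0433 under relative log expression (RLE) scaling and 0.0474 with limma. Psmb7 differed by a log2 of 0.05 ± 0.04 (adjusted p = 0.383). Under total count scaling Psmb5 and Psmb7 were called higher with Dex (edgeR adjusted p = 0.00644 and 0.0065). Psmb5 was also called higher without the low-count filter (edgeR adjusted p = 0.0237). Psmb1, a structural subunit, was called lower with both drugs (log2 -0.14 ± 0.05, edgeR adjusted p = 0.0369), with 10722 and 10103 counts against 11321 and 11563 in untreated cells. That call was lost in 8 of 14 alternatives, among them total count scaling (adjusted p = 0.795).

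Psmb10 fell with both drugs. It had 1763 and 1666 normalised counts with both drugs, 2457 and 1881 with Dex, and 2397 and 2843 in untreated cells. Dex overlapped with untreated, and both drugs lay below every other library. Against untreated the log2 difference was -0.61 ± 0.12 with both drugs (0.655-fold, edgeR adjusted p = 0.00177) and -0.27 ± 0.12 with Dex (adjusted p = 0.0752). Both drugs against Dex gave -0.34 ± 0.12 (adjusted p = 0.104). The fall with both drugs was called in all 14 alternatives. The Dex difference was called in 3 of 13, among them without the low-count filter (edgeR adjusted p = 0.00021). Without Dex replicate 1, the library at 2457, it stood at log2 -0.48. Both drugs against Dex was called in 2 of 14, among them without the low-count filter (edgeR adjusted p = 1.32e-06). Counted against Psmb7 in the same library, which needs no scaling between libraries, Psmb10 stood at 0.139 and 0.133 with both drugs, 0.191 and 0.148 with Dex, and 0.197 and 0.226 in untreated cells.

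Psma8 was the 1 core gene called with both drugs against Dex. It had 100 and 90.9 normalised counts with both drugs, 154 and 149 with Dex, and 120 and 114 in untreated cells, without overlap between any 2 groups. The log2 difference was -0.66 ± 0.13 for both drugs against Dex (edgeR adjusted p = 0.0133) and 0.37 ± 0.13 for Dex against untreated (adjusted p = 0.0415). The Dex rise was kept in 4 of 13 alternatives and lost under DESeq2 (adjusted p = 0.231) and without any 1 of the 6 libraries (adjusted p from 0.0545 to 0.158). The fall was kept in 10 of 14, and lost under DESeq2 (0.0632), without replicate 1 (0.0645) or replicate 2 (0.109) of both drugs, and in the authors' deposited table (0.0519).

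While 51.6% of all genes were called with Dex, 0 of 6 ATPase genes (Psmc1 to Psmc6) in the base of the cap were. Of these 1 was lower and 0 higher at an unadjusted p under 0.05, and DESeq2 called 0. Under total count scaling, however, Psmc1, Psmc3 and Psmc5 were called higher with Dex (edgeR adjusted p = 0.0125, 0.00698 and 0.0138). Psmc1 had 11827 and 11598 normalised counts with both drugs, 11763 and 11946 with Dex, and 11816 and 11437 in untreated cells, with the groups overlapping. Psmc4 and Psmc6 had the smallest differences with Dex in the cap, at log2 -0.01 ± 0.05 and -0.01 ± 0.06, and both stood at 0.12 under total count scaling. Psmc4 had 8091 and 8129 with both drugs, 8454 and 7961 with Dex, and 8460 and 8018 in untreated cells. Psmc6 had 12786 and 12008 with both drugs, 11775 and 12688 with Dex, and 12712 and 11897 in untreated cells. Psmc2 was called lower with both drugs (log2 -0.14 ± 0.04, edgeR adjusted p = 0.0236), a call lost in 6 of 14 alternatives.

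Among the non-ATPase base genes, the scaffold subunit Psmd2 rose. It had 23464 and 23163 normalised counts with both drugs, 23313 and 22516 with Dex, and 20460 and 21090 in untreated cells, with every treated library above the untreated ones. The log2 difference was 0.14 ± 0.04 for Dex (edgeR adjusted p = 0.023) and 0.17 ± 0.04 for both drugs (adjusted p = 0.0112). The Dex call was kept in 8 of 13 alternatives and lost without untreated replicate 1 (adjusted p = 0.12), Dex replicate 1 (0.0694) or either library of both drugs (0.0608 and 0.0597). The call for both drugs was lost without untreated replicate 1 (0.0678) or either library of both drugs (0.0982 and 0.0665). The other scaffold, Psmd1, had 16774 and 16725 with both drugs, 15402 and 16450 with Dex, and 16689 and 15769 in untreated cells. The ubiquitin receptor Psmd4 had 12943 and 12758 with both drugs, 14024 and 12863 with Dex, and 13159 and 12961 in untreated cells. Neither was called in any comparison.

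In the lid, 1 of 8 genes was higher and 4 were lower with Dex (62.5% called, beside 51.6% of all genes). Of all genes 25.5% were higher and 26.0% lower. The lid median was a log2 difference of -0.11. Under total count scaling 3 of the 4 lower calls were lost. Psmd11, a lid subunit whose modification is known to regulate proteasome activity, had 7630 and 7506 normalised counts with both drugs, 7002 and 7424 with Dex, and 9481 and 9421 in untreated cells. The treated and untreated libraries were well separated. It fell by 0.39 ± 0.05 on the log2 scale with Dex (0.763-fold, edgeR adjusted p = 7.84e-05) and by 0.32 ± 0.05 with both drugs (adjusted p = 0.000322), and it was called in every alternative in both comparisons. The other 3 lid genes called lower were smaller in size and less firm. Psmd7 had 10978 and 10973 with both drugs, 10347 and 10525 with Dex, and 12121 and 11431 in untreated cells (log2 -0.17 ± 0.05 for Dex, edgeR adjusted p = 0.0107, and 0.089 without untreated replicate 1). Psmd8 (log2 -0.16 ± 0.06, adjusted p = 0.0401) and Psmd3 (log2 -0.17 ± 0.06, adjusted p = 0.0498) followed. Under total count scaling none of these 3 was called lower, at log2 -0.04, -0.03 and -0.04 for Psmd7, Psmd8 and Psmd3 (adjusted p = 0.437, 0.706 and 0.637). Psmd3 with Dex stood at 11631 and 10150, the low value being replicate 2, without which its adjusted p was 0.194, and the calls of Psmd3 and Psmd8 were kept in 5 and 6 of 13 alternatives. Psmd6 was the lid gene that rose, with 9040 and 8519 with both drugs, 9038 and 8954 with Dex, and 8107 and 8092 in untreated cells (log2 0.15 ± 0.05, adjusted p = 0.0213). That call was lost without untreated replicate 1 (adjusted p = 0.0737), untreated replicate 2 (0.0788) or Dex replicate 2 (0.0509). Psmd14, the deubiquitinating enzyme of the lid, was not called, with 8450 and 8114 with both drugs, 8451 and 8935 with Dex, and 8559 and 8109 in untreated cells. Each treated group overlapped with untreated, while both drugs lay just below Dex. The remaining subunits, Psma4, Psma6, Psmb2 and Psmb3 of the core, the ATPase Psmc3 and the lid genes Psmd12 and Psmd13, were called in no comparison. Their log2 differences with Dex lay between -0.06 (Psmd12) and 0.12 (Psmd13). The ATPase Psmc5 was likewise called in none. Under total count scaling, all of these but Psmd12 were called higher with Dex, at log2 0.16 (Psmc5) to 0.25 (Psmd13).

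With Dex against untreated, the activators changed most as a group, with a median size of 0.49 on the log2 scale. All 5 activator genes were called there, 4 higher and 1 lower, beside 51.6% of all genes. Psme2 and Psme2b are near copies, so these calls are not all separate. With both drugs against untreated, the largest single difference was that of the core gene Psmb10 (log2 -0.61). The PA28 family split by type. Psme1 and Psme2 encode PA28α and PA28β, which form a cytosolic ring that opens the core and is known to be induced by interferon gamma. Psme3 encodes PA28γ, a nuclear relative. Psme1 had 3469 and 3367 normalised counts with both drugs, 4171 and 3801 with Dex, and 2956 and 2811 in untreated cells. The 3 groups did not overlap, with Dex highest and untreated lowest. It rose 1.38-fold with Dex (log2 0.47 ± 0.06, edgeR adjusted p = 8.59e-05) and 1.19-fold with both drugs (adjusted p = 0.00561, and 0.0518 without replicate 1 of both drugs).

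Psme2 had 2887 and 3048 with both drugs, 3257 and 3337 with Dex, and 2306 and 2268 in untreated cells, in the same order of groups and without overlap. It rose 1.44-fold with Dex (log2 0.53 ± 0.05, edgeR adjusted p = 1.23e-05) and 1.30-fold with both drugs (adjusted p = 0.000159). Psme2b, a near copy whose transcript is 99.4% identical to that of Psme2 over 794 aligned bases, had 1886 and 1799 with both drugs, 2430 and 2108 with Dex, and 1522 and 1530 in untreated cells, and rose 1.49-fold with Dex (adjusted p = 8.4e-05). How the counting divided reads between Psme2 and Psme2b is not stated, so their separate values are uncertain, though both moved the same way. The Dex rises of Psme1, Psme2 and Psme2b were called in all 13 alternatives.

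Psme3 went the other way from a much higher level. It had 19609 and 19322 normalised counts with both drugs, 18348 and 19398 with Dex, and 26244 and 26638 in untreated cells, with treated and untreated libraries apart. It fell by 0.49 ± 0.05 on the log2 scale with Dex (0.714-fold, edgeR adjusted p = 1.35e-05) and by 0.44 ± 0.05 with both drugs (adjusted p = 2.96e-05), in every alternative. Per length, Psme3 stood at 152 ± 1.59 CPM per kb with both drugs, 148 ± 5.81 with Dex and 207 ± 2.18 in untreated cells, while Psme1 stood at 35.7 ± 0.75 with both drugs, 41.6 ± 2.73 with Dex and 30.1 ± 1.07 in untreated cells. Within each library, the counts of Psme1 over those of Psme3 were 0.177 and 0.174 with both drugs, 0.227 and 0.196 with Dex, and 0.113 and 0.106 in untreated cells. This ratio needs no scaling between libraries, and it was higher in each treated library than in the untreated ones.

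Psme4, the nuclear activator PA200, rose slightly, with 11596 and 11049 normalised counts with both drugs, 10713 and 11470 with Dex, and 10247 and 9651 in untreated cells. The log2 difference was 0.16 ± 0.05 for Dex (edgeR adjusted p = 0.0344), kept in 7 of 13 alternatives, and 0.19 ± 0.05 for both drugs (adjusted p = 0.0165), kept in 12 of 14. The Dex call was lost without untreated replicate 2 (0.199), Dex replicate 2 (0.211) or either library of both drugs (0.06 and 0.0598), and the other without untreated replicate 2 (0.112) or replicate 1 of both drugs (0.144). Psmf1, the inhibitor PI31, had 2155 and 2255 with both drugs, 2284 and 2298 with Dex, and 2198 and 2283 in untreated cells and was not called in any comparison.

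**Figure D3:**
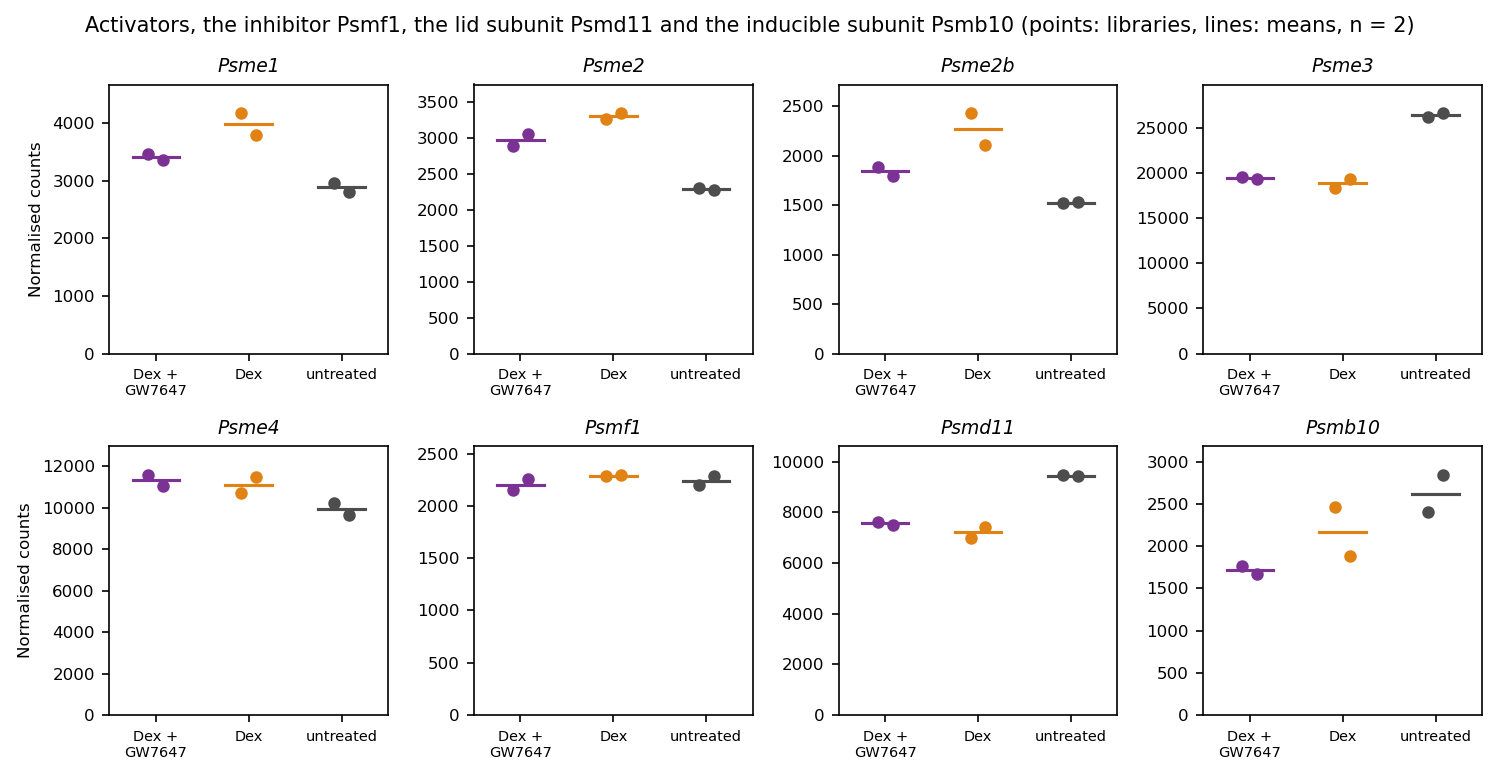
Normalised counts of the activator genes, the inhibitor Psmf1, the lid gene Psmd11 and the inducible core gene Psmb10 with both drugs, with Dex and untreated. Points are libraries, lines are means (n = 2), and axes start at 0. Psme1, Psme2 and Psme2b are highest with Dex, Psme3 and Psmd11 are lower in all 4 treated libraries, and Psmb10 is lowest with both drugs.

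Adding GW7647 to Dex gave lower levels of 2 activator genes. Psme1 fell by 0.22 ± 0.06 on the log2 scale against Dex (edgeR adjusted p = 0.0363) and Psme2b by 0.30 ± 0.07 (adjusted p = 0.0218), while Psme2 stood at -0.15 ± 0.05 (adjusted p = 0.0823). These calls were kept in 10 of 14 alternatives each. They were lost without Dex replicate 1 (adjusted p = 0.144 for Psme1 and 0.0778 for Psme2b), without replicate 1 of both drugs (0.159 and 0.0945), without its replicate 2 (0.267 and 0.181), and in the authors' deposited table (0.0529 and 0.149). Psme3 differed by 0.04 ± 0.05 (adjusted p = 0.608). Of the 46 proteasome genes, 3 were called with both drugs against Dex, where 9.73% of all genes were called. None of these 3 calls was kept in all 14 alternatives.

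The assembly chaperones did not move as a block. Of the 4 core chaperones, Psmg4 rose, with 729 and 704 normalised counts with both drugs, 726 and 742 with Dex, and 565 and 617 in untreated cells (log2 0.31 ± 0.07 for Dex, edgeR adjusted p = 0.00499). Psmg3 fell, with 2014 and 1838 with both drugs, 2119 and 1804 with Dex, and 2382 and 2536 in untreated cells (log2 -0.32 ± 0.08, adjusted p = 0.00654), and this call was lost under total count scaling (adjusted p = 0.069). Psmg3 and Psmg4 are known to act as partners, as are Psmg1 and Psmg2, which were not called (log2 0.03 ± 0.05 for Psmg1 and 0.0028 ± 0.06 for Psmg2 with Dex). Of the 3 chaperones of the base, Psmd5, Psmd9 and Psmd10, 0 were called with Dex, beside 51.6% of all genes. At an unadjusted p under 0.05, 0 were higher and 1 lower, and DESeq2 called 0. Psmd10 was lower with both drugs (log2 -0.16 ± 0.05, edgeR adjusted p = 0.0173), in 7 of 14 alternatives. Psmc3ip, the match that is no subunit, had 688 and 680 with both drugs, 585 and 601 with Dex, and 834 and 836 in untreated cells (log2 -0.49 ± 0.06 for Dex, adjusted p = 0.000132). Exons of Mlx cover 21.2% of its exon length on the other strand, and whether counting used strand is not stated.

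Summed over genes, the core took 0.341% and 0.334% of all counts with both drugs, 0.354% and 0.344% with Dex, and 0.304% and 0.309% in untreated cells. The cap took 0.467% and 0.456% with both drugs, 0.471% and 0.457% with Dex, and 0.431% and 0.424% in untreated cells. Treated and untreated libraries did not overlap in either share. These shares are on the scale of total counts, on which the median of all genes was also higher with Dex. On the TMM scale, the median log2 difference with Dex was 0.06 for the core and -0.01 for the cap. Globin transcripts took 2.82% and 2.76% with both drugs, 3.12% and 2.96% with Dex, and 6.48% and 7.15% in untreated cells, and without globin counts the core shares were 0.351% and 0.344% with both drugs, 0.365% and 0.354% with Dex, and 0.325% and 0.332% in untreated cells. Without globin counts the cap shares were 0.4809% and 0.4689% with both drugs, 0.4865% and 0.4704% with Dex, and 0.4605% and 0.4569% in untreated cells. The ratio of cap to core counts was 1.37 and 1.36 with both drugs, 1.33 and 1.33 with Dex, and 1.42 and 1.38 in untreated cells, lower with Dex than in the other libraries.

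**Figure D4:**
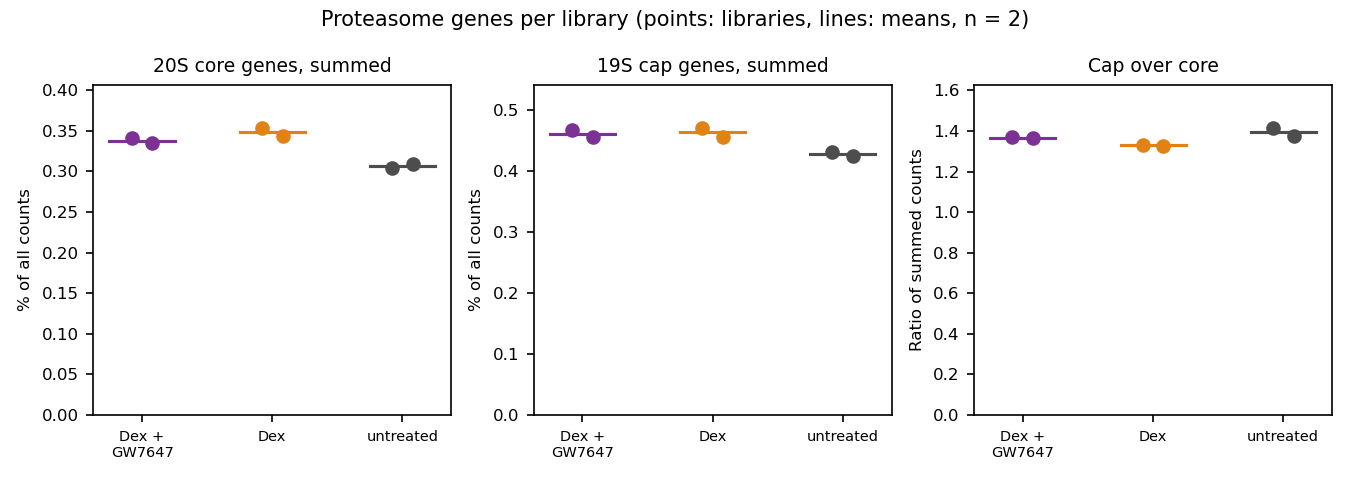
Share of all counts in the 16 core genes (left) and 17 cap genes (middle), and the ratio of cap to core counts (right), per library with both drugs, with Dex and untreated (points are libraries, lines means, n = 2, axes from 0). The core share is 0.334% to 0.354% in treated libraries against 0.304% and 0.309% in untreated ones. Shares are of total counts, not on the TMM scale.

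Genes of the pathway outside the rule were taken from a list of 34 regulators, shuttle factors, ubiquitin genes and companion proteins, of which 33 were tested. With Dex, 5 were higher and 11 lower (48.5% called, beside 51.6% of all genes). With both drugs against untreated, 5 were higher and 10 lower (45.5% called, beside 49.7% of all genes). Against Dex, 0 were higher and 1 lower (3.03% called, beside 9.73% of all genes).

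The regulator Nfe2l1 encodes the transcription factor that is known to raise proteasome genes when proteasome activity is short. It had 4185 and 4258 normalised counts with both drugs, 4032 and 3850 with Dex, and 6976 and 7160 in untreated cells, with treated libraries far below untreated ones. It fell by 0.84 ± 0.05 on the log2 scale with Dex (0.558-fold, edgeR adjusted p = 3.73e-07) and by 0.74 ± 0.05 with both drugs (adjusted p = 9.7e-07). Ngly1, the enzyme that strips sugar chains from that factor as part of its activation, had 2903 and 2831 with both drugs, 3534 and 3577 with Dex, and 1862 and 1849 in untreated cells. It rose 1.92-fold with Dex (adjusted p = 1.56e-07) and was 0.807-fold with both drugs against Dex (adjusted p = 0.00193), the 1 pathway gene called there. The related factor Nfe2l2 fell by 0.29 ± 0.05 with Dex (adjusted p = 0.00115).

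Fbxo7, a ubiquitin ligase subunit that binds PI31, had 2987 and 2909 normalised counts with both drugs, 3073 and 2811 with Dex, and 4992 and 5038 in untreated cells (log2 -0.77 ± 0.05 for Dex, edgeR adjusted p = 1.61e-06). It was lower in every treated library. Zfand5, a protein that stimulates the proteasome, fell by 0.41 ± 0.05 with Dex (adjusted p = 5.44e-05) and Ube3c, a ligase of the proteasome, by 0.27 ± 0.05 (adjusted p = 0.00079). Pomp, the maturation factor of the core, had 9498 and 8906 with both drugs, 10298 and 9507 with Dex, and 8284 and 8674 in untreated cells and rose by 0.22 ± 0.06 with Dex (adjusted p = 0.00767), but not when untreated replicate 1 was left out (adjusted p = 0.0542). Adrm1, a ubiquitin receptor of the cap, and Vcp, the segregase that feeds it, were not called in any comparison (log2 -0.0042 ± 0.06 for Adrm1 and 0.06 ± 0.05 for Vcp with Dex), nor was the shuttle Ubqln2 (log2 -0.13 ± 0.06 for Dex).

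**Figure D5:**
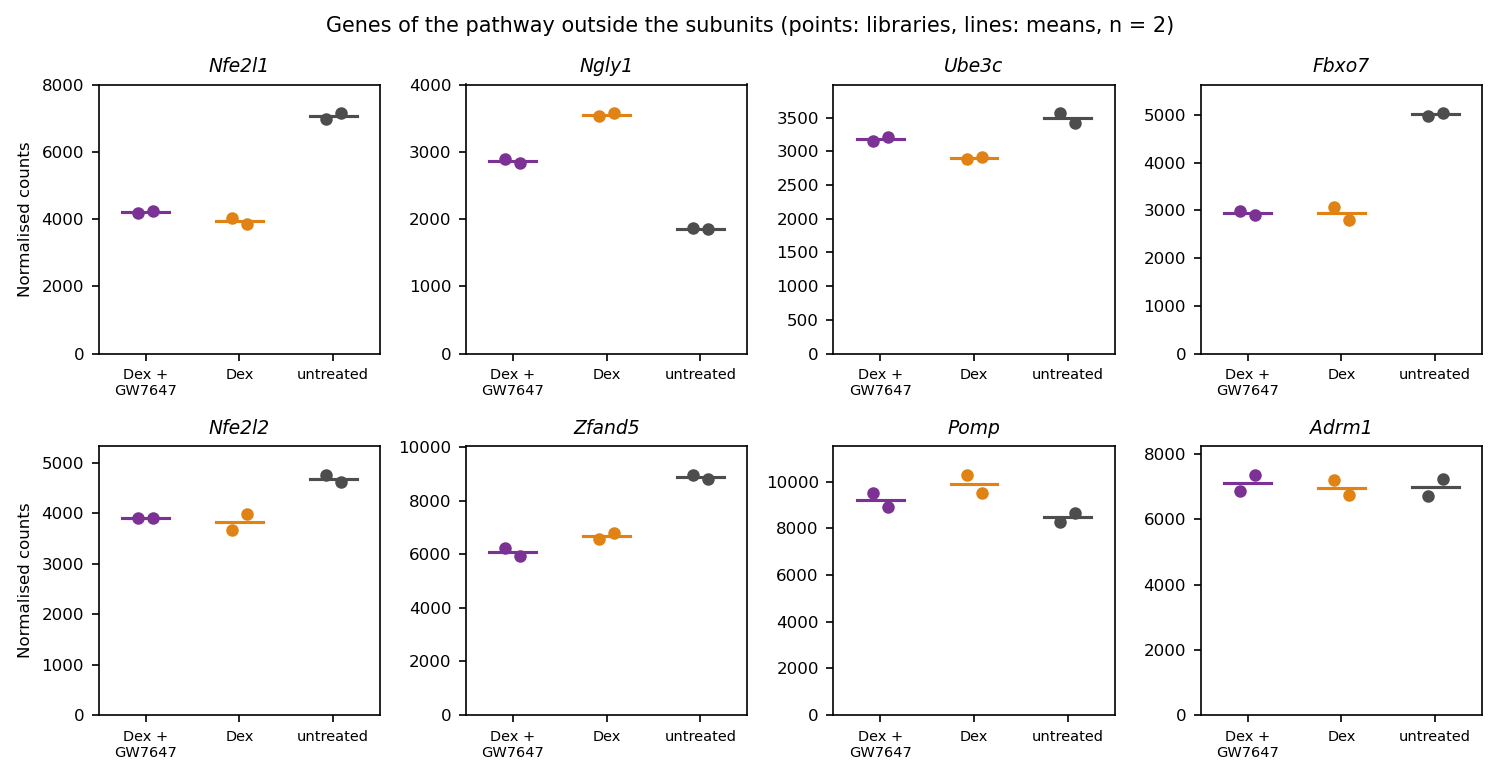
Normalised counts of 8 pathway genes outside the subunits with both drugs, with Dex and untreated (points are libraries, lines means, n = 2, axes from 0). Nfe2l1 and Fbxo7 are lower and Ngly1 is higher in all 4 treated libraries, while Adrm1 overlaps across groups.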

How the data were processed

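Poly(A) RNA libraries were made from total RNA with an Illumina TruSeq kit, per the labels. TopHat 1.4.1, HTSeq and DESeq and the builds mm9 and NCBIM37 are named in the submitters' processing notes; the strand setting of the counting is not given in the sources used here. The 2 deposited tables hold whole-number read counts for 37620 Ensembl genes, a fold ratio between groups and an adjusted p-value, both computed by the authors. Symbols were joined by identifier from GENCODE M21 for 32897 genes (87.45%).

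Counts of all 6 libraries were fitted with edgeR 4.0.16 (R 4.3.3), using filterByExpr (minimum count 10), TMM scaling, the quasi-likelihood test and Benjamini-Hochberg adjustment over 14125 genes. Normalised counts are on the scale of the mean effective (TMM) library size. The procedure was tested on simulated data for Dex against untreated over 14125 genes, where 87.6% of genes changed by 1 and 72% of those changed by 0.5 on the log2 scale were called. Of 13732 unchanged genes, 0.167% were called. Only 97 and 100 genes were changed by these sizes, far fewer than the 7283 called in the data. Most core and cap differences were smaller than 0.5, so these rates do not describe the power for them. Alternatives used DESeq2 1.42.0, limma 3.58.1, other scalings and filters, fewer libraries, a replicate block and the authors' deposited p. Members with the largest differences, the least changed and a fixed set were named, as were fixed pathway genes and the 4 with the smallest p in each comparison; Psma7, Psmb6, Psmb7, Psmc2, Psmc3ip, Psmd10, Psmg1 and Psmg2 were named after their values were seen, and 1 pathway gene is not reported here. The members and lists were chosen with earlier results of these data known. Counts limit precision by counting error, and no replicate pair was close enough to be the same library (chi-square per degree of freedom 3.67 to 19.3).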

Additional observations from a re-analysis of the deposited data

How the results depend on the processing

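Across 1927 recomputed values of single members under 13 or 14 alternatives, 1771 kept their side of the threshold, 100 calls were lost, 56 were gained, and 0 called differences changed sign; 122 uncalled ones did. Called in every alternative were 6 of 17 members with Dex (Psmd11, Psme1, Psme2, Psme2b, Psme3 and Psmg4) and 5 of 15 with both drugs against untreated (Psmb10, Psmd11, Psme2, Psme3 and Psmg3). With total count scaling, Dex against untreated gave 12 core genes higher, 8 cap genes higher and 1 lower, 8 other members higher and 1 lower, 13 pathway genes higher, and medians of 0.19 (core) and 0.12 (cap). Both drugs against untreated then gave 10 core genes higher and 1 lower, 7 cap genes higher and 1 lower, 16 pathway genes higher, and medians of 0.14 and 0.11. On the 4 libraries compared, Dex gave 2 core genes higher, and 1 cap gene higher and 2 lower; RLE scaling, limma-trend and no low-count filter each called 1 core gene lower. Without the filter, both drugs against untreated gave 2 core genes higher and 1 lower, 2 cap genes higher and 9 pathway genes higher, and against Dex 2085 genes in all, 2 core genes lower and 1 pathway gene higher. Against Dex, 0 core genes were lower with DESeq2, 0 core genes and 0 other members in the authors' deposited table, and against untreated that table gave 1 core gene lower. With the longest transcript as length, the highest cap level was 3.93 times the lowest with Dex.

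Deviations of same-numbered libraries from their group means correlated at -0.212 (untreated and Dex), -0.046 (untreated and both drugs) and 0.149 (Dex and both drugs). With 2 libraries per group, these values cannot show whether the libraries were paired. With a replicate block, 2 core genes were higher and 2 cap genes lower with Dex, and 1 core gene was lower with both drugs against untreated.

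Leaving out 1 library at a time gave, for Dex against untreated, 6067 to 7077 genes called, 1 to 3 core genes higher and 0 to 1 lower, 0 to 3 cap genes higher and 2 to 4 lower, 4 to 5 other members higher and 2 to 3 lower, 4 to 8 pathway genes higher and 8 to 11 lower, and medians of 0.05 to 0.08 (core) and -0.0435 to 0.0346 (cap). For both drugs against untreated it gave 5285 to 7646 genes, 0 to 1 core genes higher and 1 to 3 lower, 0 to 2 cap genes higher and 1 to 3 lower, 1 to 5 other members higher and 2 to 3 lower, 3 to 7 pathway genes higher and 7 to 10 lower, and medians of 0.01 to 0.04 and -0.04 to 0.02. For both drugs against Dex it gave 548 to 1729 genes, 0 to 2 core genes lower, 0 to 2 other members lower, 0 to 1 pathway genes higher, and medians of -0.04 to -0.03 and -0.0190 to 0.0243. A group left with 1 library was assumed to vary like the others. Why these counts moved was not tested.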
